A study of Mus musculus with 18 samples.

Results

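The expression of 10 p53 target genes was followed through kidneys of mice given streptozotocin, the agent labelled AOS or a faecal transfer. The genes were Cdkn1a, Mdm2, Ccng1, Bax, Trp53inp1, Phlda3, Sesn2, Gdf15, Eda2r and Zmat3, found by symbol in a table of 19545 rows, where each stood on 1 row. They were chosen by their levels in these same libraries, with earlier results in view, so their values are given as a description and carry no test of their own. RNA came from kidneys of ICR mice aged 10 weeks, with 18 libraries in 6 groups of 3. The control group had no treatment named, the AOS group received AOS at 10 mg/kg, the STZ group received STZ, and the STZ+AOS group received both, AOS again at 10 mg/kg. The last groups received STZ and a transfer, either AOS10mg/kg-FMT (here STZ+AOS-FMT) or control-FMT (here STZ+control-FMT). STZ usually stands for streptozotocin, which kills insulin-producing cells and is given to rodents to model diabetes, and FMT for faecal microbiota transplantation. AOS is not spelled out in the labels, which also give no blood glucose, no dose of STZ and no time since it was given, and name no allele or transgene. The design text asks what FMT does to a kidney damaged by STZ.

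The transcription factor p53 is held at low activity by the ubiquitin ligase MDM2, and DNA damage and other stresses free it from that control. Active p53 switches on genes that stop the cell cycle, genes that promote apoptosis and genes that repair or protect the cell, and it switches on Mdm2 as well, which closes a feedback loop. In the kidney, p21, the product of Cdkn1a, is a long-known marker of injured tubules, where cells leave the cycle before they repair or fail to repair. Several of the 10 genes also answer to other regulators, Sesn2 and Gdf15 to the integrated stress response among them.

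Levels are in FPKM, a read or fragment count scaled by gene length and by library total, so that genes may be set side by side. Depth is unknown. The kidney label was checked with 7 proximal tubule markers, which summed to between 2091 and 4538 FPKM in each library, and 8 markers of other nephron segments, which summed to between 943 and 2009. RNA of other tissues was present in part of the libraries. The sum of 8 adrenal cortex markers was 1788 and 2535 FPKM in 2 STZ+AOS libraries, 118 in the other, 922 in control 3, and 41.8 and 56.9 in STZ 2 and STZ 3, and it was between 1.2 and 2.52 in the other 12. Kap, the androgen-regulated kidney protein, was between 144521 and 155154 FPKM in controls 1 and 2, the AOS libraries and STZ 1, and between 6174 and 85880 in the other 12. The 6 spermatid markers summed to between 21.2 and 82.6 FPKM in the control and STZ libraries and to at most 0.68 in the other 12. Control 3 and STZ 1 stood apart from their own groups, and results that rest on them are given with and without them. In bulk tissue, fewer cells of a type and less RNA per cell cannot be told apart.

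Promoter sequence from RefSeq (build GRCm38.p6, the assembly also called mm10) was at hand for 8 of the 10 genes. Each window ran from 250 bases before the annotated start to 50 bases after it. The windows were searched for the p53 half-site, a 10-base consensus that reads alike on both strands, without mismatch, and for the full site of 2 adjoining half-sites over 20 bases, with up to 2 mismatches outside the core C and G. Stretches that hold a match are printed to show how close their letters come to the sequence p53 is known to prefer. The match is in capitals, and all are written 5′ to 3′ on the strand of the gene. Cdkn1a had a full match from 51 to 32 bases before its start, in chr17:29090858-29090948 on the plus strand, and Ccng1 from 195 to 176 bases before its start, in chr11:40755392-40755536 on the minus strand. Each differed from the consensus at 1 position. Mdm2 (chr10:117710925-117710954, minus strand) and Bax (chr7:45467080-45467109, minus strand) held a half-site.
Cdkn1a: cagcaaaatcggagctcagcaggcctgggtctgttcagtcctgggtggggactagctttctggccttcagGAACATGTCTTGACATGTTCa
Ccng1: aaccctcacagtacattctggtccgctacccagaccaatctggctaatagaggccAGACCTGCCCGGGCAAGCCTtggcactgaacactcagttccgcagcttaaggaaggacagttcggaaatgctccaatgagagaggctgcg
Mdm2: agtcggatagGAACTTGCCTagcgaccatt
Bax: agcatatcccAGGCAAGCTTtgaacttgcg

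Full matches were rare among all windows of the table, 107 of 32851 (0.326%), and half-sites were found in 2745 (8.36%). Among the 8 genes with a window, 2 had a full match and 4 a half-site, with those of Cdkn1a and Ccng1 inside their full match. Cdkn1a had a further half-site from 73 to 64 bases before its start, in lower case above. A match describes letters in the window and not binding, and the absence of one in Phlda3, Sesn2, Gdf15 and Eda2r says only that these letters are not in this window.

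Cdkn1a (chromosome 17, 29090976 to 29100727) encodes p21, the inhibitor of cyclin-dependent kinases through which p53 halts the cycle. Its level was 14.9, 7.11 and 82.6 FPKM in controls 1, 2 and 3, against 5.20, 3.73 and 4.62 with AOS. The STZ libraries held 6.52, 62.5 and 80.1, and those of STZ+AOS 112, 76.0 and 155. The transfer libraries held a middle range, with 31.8, 25.0 and 23.4 in STZ+AOS-FMT and 35.3, 27.4 and 40.3 in STZ+control-FMT. Control 3 was thus level with the higher STZ libraries, and STZ 1 lay under each of the other controls. The lowest transfer library exceeded every AOS library, while the transfer groups overlapped each other. The mean in STZ+AOS was 25.4 times that in AOS, and the mean of the 6 transfer libraries was 6.76 times it.

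Ccng1 (chromosome 11, 40748552 to 40755311) encodes cyclin G1, a p53-induced cyclin that takes part in the feedback on p53 through MDM2. It had the highest level of the 10 genes, with 91.4, 74.3 and 227 FPKM in controls 1 to 3 and 70.5, 59.4 and 62.8 in AOS. The STZ libraries held 64.8, 232 and 199, those of STZ+AOS 179, 230.1 and 162, and the 6 transfer libraries between 149 and 185. Ccng1 differed from Cdkn1a in its top range, since the 12 higher libraries lay within 149 and 232 FPKM whatever their group. The STZ+AOS mean was 2.96 times the AOS mean and the transfer mean 2.65 times it, closer to each other than for the other 9 genes.

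Mdm2 (chromosome 10, 117688875 to 117710758), the ligase that marks p53 for destruction, had 14.4, 15.1 and 34.9 FPKM in controls 1 to 3 and 12.5, 11.3 and 14.7 in AOS. In STZ the values were 14.2, 28.3 and 31.3, and in STZ+AOS 31.3, 37.1 and 35.6. The transfer libraries lay between 20.4 and 25.2. STZ+AOS exceeded STZ without overlap, but only by 31.32 in its lowest library against 31.30 in the highest STZ library. The STZ+AOS mean was 2.7 times that of AOS.

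**Figure D1:**
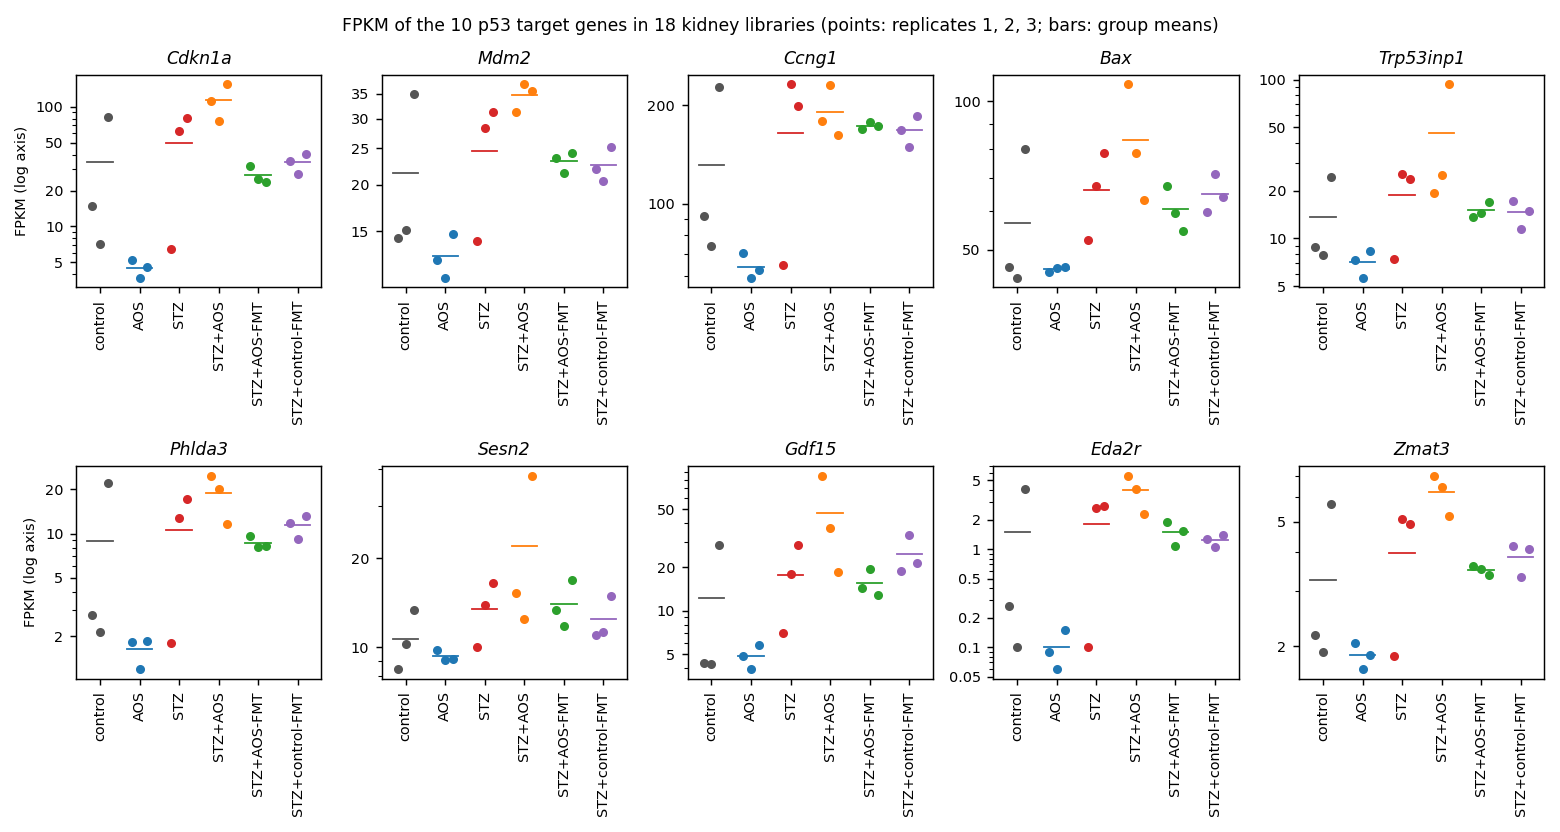
FPKM on a log axis for each of the 10 genes in the 18 libraries, with points for replicates 1, 2 and 3 of each group and bars for the group means. In every panel the third control is the highest control and the first STZ library the lowest of its group, and the AOS mean is the lowest and the STZ+AOS mean the highest.

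Bax (chromosome 7, 45461697 to 45466898), the pore-forming protein of the mitochondrial path to apoptosis, spanned the narrowest range. Controls 1 to 3 had 46.2, 44.0 and 80.1 FPKM, and AOS 45.1, 46.0 and 46.1. The STZ libraries had 52.3, 67.2 and 78.7 and the STZ+AOS libraries 108, 78.7 and 63.2, while the transfer libraries lay between 54.6 and 71.2. From the lowest to the highest library Bax spanned 2.46 times, and its STZ+AOS mean was 1.82 times the AOS mean. The STZ+AOS, STZ and transfer values overlapped.

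Phlda3 (chromosome 1, 135766119 to 135769136) encodes a protein that keeps the survival kinase Akt from the membrane. Controls 1 to 3 had 2.81, 2.15 and 22.0 FPKM, AOS 1.83, 1.2 and 1.86 and STZ 1.80, 12.7 and 17.1. STZ+AOS had 24.9, 20.1 and 11.6, STZ+AOS-FMT 9.58, 8.12 and 8.25, and STZ+control-FMT 11.9, 9.21 and 13.3. A gap stood between the 6 lowest libraries, at most 2.81, and the other 12, at least 8.12. The mean in STZ+AOS was 11.6 times that in AOS.

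Eda2r (chromosome X, 97333840 to 97377216) encodes a receptor of the tumour necrosis factor family for ectodysplasin A2. It was nearly silent in AOS, with 0.09, 0.06 and 0.15 FPKM, in controls 1 and 2, with 0.26 and 0.10, and in STZ 1, with 0.10. It reached 4.08 in control 3, 2.61 and 2.75 in STZ 2 and STZ 3, 5.62, 4.05 and 2.30 in STZ+AOS, and between 1.06 and 1.87 in the transfer libraries. Eda2r passed the filter of 1 FPKM in 3 libraries only through the libraries where it is high, and its fold of 39.9 between the STZ+AOS and AOS means divides by a level near 0. On the log2(FPKM + 1) scale used for the fit, a gene this low has its differences understated.

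Trp53inp1 (chromosome 4, 11156431 to 11174379) encodes a p53-inducible nuclear protein of the apoptotic and autophagic response. Controls 1 to 3 had 8.88, 7.84 and 24.3 FPKM, AOS 7.34, 5.66 and 8.29 and STZ 7.43, 25.6 and 23.7. STZ+AOS had 19.3, 25.0 and 93.7, and the transfer libraries between 11.5 and 17.3. STZ+AOS 3 stood far above the rest, with 4.86 times the level of STZ+AOS 1, whereas the other STZ+AOS libraries lay within the range of STZ 2, STZ 3 and control 3 or under it.

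Sesn2 (chromosome 4, 132492032 to 132510501) encodes sestrin 2, which restrains the growth kinase mTORC1 under stress. Controls 1 to 3 had 8.45, 10.25 and 13.4 FPKM, AOS 9.79, 9.07 and 9.14 and STZ 10.01, 13.9 and 16.5. STZ+AOS had 15.3, 12.5 and 38.0, again with the highest value in replicate 3, at 2.48 times replicate 1. The transfer libraries lay between 11.01 and 16.9. Sesn2 and Bax had the narrowest gaps between lower and higher libraries, with 10.25 against 11.01 FPKM for Sesn2 and 52.3 against 54.6 for Bax as the values on each side.

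Gdf15 (chromosome 8, 70629393 to 70632456) encodes a secreted cytokine of stressed tissue that curbs appetite through the brainstem. Controls 1 to 3 had 4.31, 4.28 and 28.2 FPKM, AOS 4.89, 3.95 and 5.78 and STZ 6.95, 17.9 and 28.3. STZ+AOS had 85.7, 37.2 and 18.3, STZ+AOS-FMT 14.3, 19.5 and 12.9, and STZ+control-FMT 18.9, 33.2 and 21.2. Its highest value was in STZ+AOS 1, and STZ+AOS 3 held 0.214 times as much, the reverse of Trp53inp1 and Sesn2. Transfer libraries exceeded control 3 for Gdf15 and Sesn2, and for none of the other 8 genes.

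Zmat3 (chromosome 3, 32334792 to 32366014) encodes a zinc-finger RNA-binding protein that acts in p53-dependent growth suppression. Controls 1 to 3 had 2.17, 1.91 and 5.69 FPKM, AOS 2.05, 1.69 and 1.88 and STZ 1.86, 5.12 and 4.93. STZ+AOS had 7.03, 6.44 and 5.20, all above the STZ libraries, and the transfer libraries between 3.33 and 4.19, all below STZ 2 and STZ 3. The STZ+AOS mean was 3.32 times the AOS mean.

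The order of the group means was shared at its ends. AOS had the lowest and STZ+AOS the highest mean for 10 of 10 genes. AOS did not overlap with the next group in the order for Cdkn1a, Ccng1, Phlda3 and Eda2r, and STZ+AOS did not overlap with the group under it for Mdm2 and Zmat3. All other neighbours in the order overlapped, and the order of control, STZ and the transfer groups between the ends differed from gene to gene. Control 3 was the highest control and STZ 1 the lowest STZ library for 10 of 10 genes. For each of the 10 genes the same 6 libraries, controls 1 and 2, AOS 1 to 3 and STZ 1, held the 6 lowest values, an arrangement found in 8.38% of all 12682 genes tested. This split was read from the values and is no grouping of the study.

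**Figure D2:**
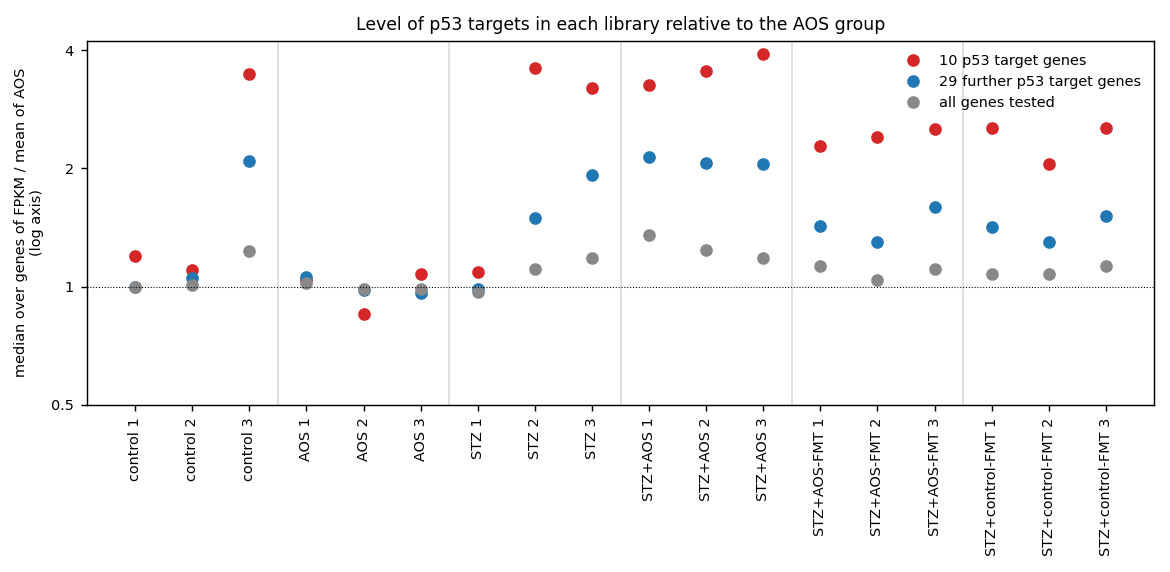
Median, over the 10 genes, over 29 further p53 target genes and over all genes tested, of each library's FPKM divided by the AOS mean of the same gene, on a log axis. For the 10 genes the median is 0.852 to 1.2 in 6 libraries, 2.05 to 2.53 in the transfer libraries and 3.21 to 3.92 in STZ 2, STZ 3, control 3 and the STZ+AOS libraries, and for all genes it stays between 0.971 and 1.35.

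Setting each gene to its AOS mean showed 3 levels. The median ratio over the 10 genes was 1.2, 1.1 and 3.48 in controls 1 to 3 and 1.09, 3.61 and 3.21 in STZ. It was 3.27, 3.55 and 3.92 in STZ+AOS, 2.28, 2.4 and 2.52 in STZ+AOS-FMT and 2.53, 2.05 and 2.53 in STZ+control-FMT. By this median the transfer libraries lay between the AOS libraries and those of STZ+AOS, without overlap with either. Gene by gene, every STZ+AOS library exceeded every transfer library for 5 of the 10 (Cdkn1a, Mdm2, Trp53inp1, Eda2r and Zmat3), and the other 5 overlapped. The median over all genes tested was also above 1 in these libraries, at 1.18 to 1.35 in STZ+AOS and 1.04 to 1.13 after a transfer.

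Differences were fitted with limma on log2(FPKM + 1) over 12682 genes, with Benjamini-Hochberg adjustment. Whether the replicates came from separate mice is not stated, so whether their spread is that between mice is not known. For STZ against control, which addresses the effect of STZ alone, all 10 genes had a higher mean in STZ. The log2 differences ran from 0.23 for Mdm2 to 0.81 for Gdf15 with a median of 0.34, beside 0.00 over all genes and 51.3% of genes above 0. None of the 10 was called (0% of all genes called), and none had an unadjusted p under 0.05, beside 161 of 12682 genes (1.27%). The median rests on single libraries. It was 0.860 without control 3 and 0.914 without STZ 1, but 0.141 without control 1, 0.039 without control 2, 0.138 without STZ 2 and 0.085 without STZ 3. With both control 3 and STZ 1 left out, a choice made after their values were seen, the median was 1.41. Of the 10 genes 8 were called, beside 6.95% of all genes called higher. Since control 3 was the highest control and STZ 1 the lowest STZ library of each gene, this omission raises the difference. Nothing is read from that count. Each of the 8 adrenal cortex markers was highest among the controls in control 3, and Kap was lowest there. Their part in the result was not tested.

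For AOS against control, which addresses AOS given alone, all 10 genes had a lower mean in AOS, beside 26.0% of all genes with a difference above 0. The log2 differences ran from -0.16 for Sesn2 to -2.01 ± 0.80 (SE) for Cdkn1a with a median of -0.69, beside -0.10 over all genes. None of the 10 was called, beside 0.0710% of all genes called lower, and Cdkn1a alone had an unadjusted p under 0.05, beside 4.11% of all genes. Cdkn1a, Ccng1 and Phlda3 lay without overlap under the controls, 3 of 10 beside 10.2% of all genes. With control 3 left out the median was -0.15 and 3 of the 10 genes lay above 0. Of the 9 genes called lower in all, 5 were spermatid markers, with a median of -2.62 over the 6 on that list, and all 8 adrenal cortex markers lay below 0, with a median of -2.05. Their part in the differences of the 10 genes was not tested.

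STZ+AOS was set against STZ to ask whether AOS altered the kidney of mice given STZ. Cdkn1a was 1.71 ± 0.80 higher on the log2 scale, Gdf15 1.29 ± 0.64, Phlda3 1.10 ± 0.68, Trp53inp1 1.06 ± 0.54 and Bax, the smallest, 0.32 ± 0.22. All 10 lay above 0, beside 73.6% of all genes, and the median was 0.79, beside 0.19 over all genes. None was called, beside 3.44% of all genes called higher, and Cdkn1a alone had an unadjusted p under 0.05, beside 33.1% of all genes. Mdm2 and Zmat3 lay above STZ without overlap, 2 of 10 beside 20.2% of all genes. The count over all genes, 575 in either direction, rests on single libraries: it was 11 without STZ 1 or STZ 2, 15 without STZ+AOS 1 and 194 without STZ+AOS 3, but 1392 without STZ+AOS 2 and 3349 without STZ 3. STZ 1 had the lowest STZ level of each gene, and without it the median was 0.31 and 9 of the 10 lay above 0. All 8 adrenal cortex markers and all 5 markers of adrenal chromaffin cells were higher in every STZ+AOS library than in any STZ library. Their sums were 118 to 2535 against 1.69 to 56.9 FPKM and 7.84 to 167 against 0 to 1.1. All 6 spermatid markers were called lower in STZ+AOS. The part of these markers in the differences of the 10 genes was not tested.

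The transfer groups were each compared with STZ to ask whether a transfer altered the STZ kidney, and they share the STZ libraries. For STZ+AOS-FMT the differences of the 10 genes ran from -0.30 for Cdkn1a to 0.26 for Ccng1, with a median of -0.01 and 4 of 10 above 0, beside 53.2% of all genes. For STZ+control-FMT they ran from -0.20 for Trp53inp1 to 0.59 for Gdf15, with a median of 0.02 and 5 of 10 above 0, beside 56.3% of all genes. None of the 10 was called in either comparison, beside 0.110% and 0.103% of all genes, and none had an unadjusted p under 0.05, beside 3.78% and 2.22%. Among the 14 and 13 genes called were all 6 spermatid markers, lower in both transfer groups with a median of -3.165. Their part in the result was not tested. Both medians of the 10 genes turn sign with single libraries. Without STZ 1 that of STZ+control-FMT was -0.36, and without STZ 3 that of STZ+AOS-FMT was 0.26.

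Between STZ+AOS-FMT and STZ+control-FMT, which differ in the donors of the transfer, all 10 genes overlapped, beside 6.39% of all genes higher and 4.85% lower without overlap. The differences ran from -0.60 ± 0.64 for Gdf15 to 0.16 ± 0.30 for Sesn2, with a median of -0.03. None of the 10 was called (0% of all genes called), and none had an unadjusted p under 0.05, beside 209 genes (1.65%). The standard errors reached 0.80 for Cdkn1a, from a spread pooled over all 18 libraries. Cdkn1a ran from 23.4 to 31.8 FPKM in STZ+AOS-FMT and from 27.4 to 40.3 in STZ+control-FMT. In the controls it ran from 7.11 to 82.6 and in STZ from 6.52 to 80.1. The pooled spread limits the size of difference between donors that this fit can show.

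**Figure D3:**
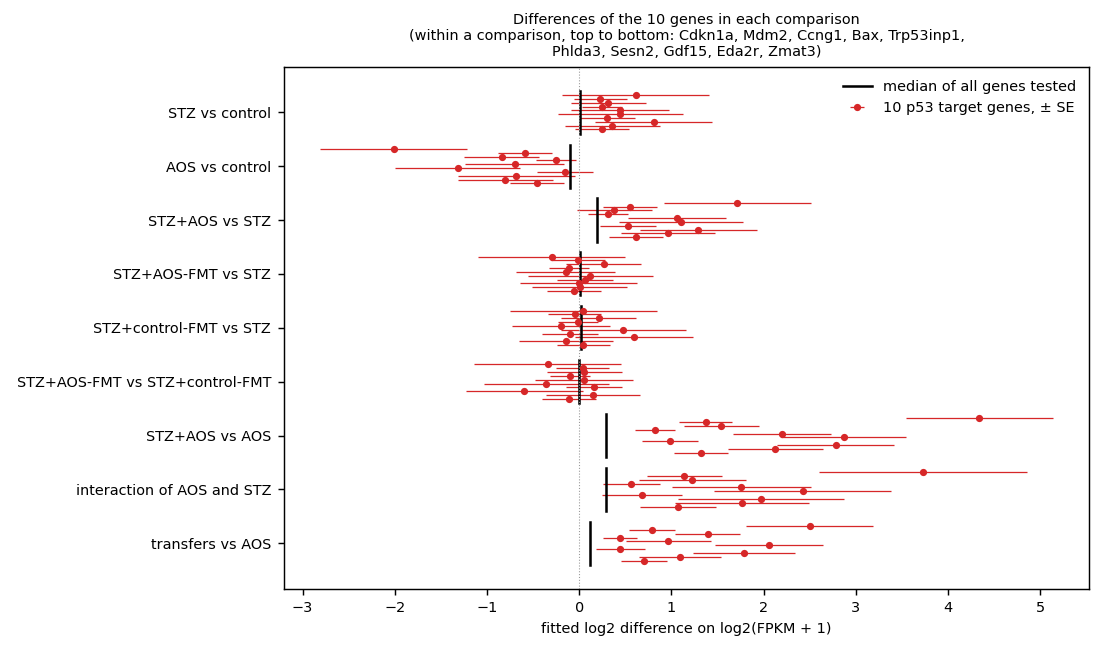
Fitted log2 differences on log2(FPKM + 1) of the 10 genes in each comparison, with bars of 1 standard error and a black line at the median of all genes tested. The points lie around 0 for the transfer groups against STZ and between donors, below 0 for AOS against control, and between 0.82 and 4.34 for STZ+AOS against AOS.

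STZ+AOS and AOS differ, per the labels, by STZ alone, and the means compared contain neither control 3 nor STZ 1. The standard errors and calls use the spread pooled over all 18 libraries, control 3 and STZ 1 included. The log2 difference was 4.34 ± 0.80 (SE) for Cdkn1a, 2.87 ± 0.68 for Phlda3, 2.78 ± 0.64 for Gdf15, 2.20 ± 0.54 for Trp53inp1 and 2.13 ± 0.51 for Eda2r. It was 1.54 ± 0.41 for Ccng1, 1.37 ± 0.29 for Mdm2, 1.32 ± 0.29 for Zmat3, 0.99 ± 0.30 for Sesn2 and 0.82 ± 0.22 for Bax. In each of the 10 genes every STZ+AOS library exceeded every AOS library, as in 49.7% of all genes. All 10 were called, beside 39.3% of all genes called higher, and since the genes were chosen with such values known, nothing is read from that count. The median was 1.83, beside 0.29 over all genes. The calls over all genes were 4985 higher and 910 lower as deposited, but 1407 and 1951 after quantile normalization and 1723 and 2499 after median-of-ratios rescaling, and the median of all genes moved from 0.29 to -0.03 and -0.01. All 10 genes stayed above 0 under both scalings, with medians of 1.61 and 1.53, and Sesn2 lost its call under each.

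Other tissue moved with this comparison. All 8 adrenal cortex markers were called higher in STZ+AOS, with sums of 118 to 2535 FPKM against 1.89 to 2.22 in AOS, where Nr5a1 was listed at 0 in all libraries and Cyp11b1 was at most 0.15. All 5 chromaffin markers were called higher as well, with 3 of them listed at 0 in all AOS libraries. Of 7 proximal tubule markers 4 were called lower, beside 910 of all 12682 genes, with sums of 2091 to 2881 against 4062 to 4320. Leukocyte markers were called higher for 2 of 6 tested, with sums of 17.5 to 51.4 against 8.62 to 14.7. Adipocyte markers were called higher for 1 of 6, with sums of 255 to 1464 against 111 to 586. Neither share exceeded the 39.3% of all genes called higher. After quantile normalization and after median-of-ratios rescaling the adrenal and chromaffin counts were the same, and proximal tubule markers had 4 and 7 called lower, leukocyte markers 0 and 1 and adipocyte markers 0 and 0 called higher. In STZ+AOS 2, the library of the group with the smallest adrenal sum, all 10 genes lay above all AOS libraries. Cdkn1a was at 76.0, Mdm2 at 37.1, Ccng1 at 230.1 and Zmat3 at 6.44 FPKM. The adrenal sum of that library, 118 FPKM, was itself above the 1.89 to 2.22 of AOS. With control 3, STZ+AOS 1 and STZ+AOS 3 left out, the libraries over 100 FPKM of the adrenal enzyme gene Cyp11b1, 7 of the 10 genes were called, beside 5.05% of all genes called higher. Ccng1, Trp53inp1 and Sesn2 lost their calls. That fit has 1 STZ+AOS library, assumed to vary like the other groups. The part of other tissue in the differences of the 10 genes was not tested.

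The transfer libraries offer a comparison with AOS in which adrenal markers are near 0 on both sides, with sums of 1.2 to 2.52 and 1.89 to 2.22 FPKM and Cyp11b1 at most 0.03 and 0.15. It was added after the values were seen, and AOS and transfer mice differ in STZ, in AOS and in the transfer, which cannot be told apart. Every transfer library exceeded every AOS library for 10 of 10 genes, beside 20.4% of all genes. The log2 difference was 2.50 ± 0.69 for Cdkn1a, 2.06 ± 0.59 for Phlda3, 1.79 ± 0.55 for Gdf15 and 1.39 ± 0.35 for Ccng1, and the smallest was 0.44 for Bax and Sesn2. The median was 1.03, beside 0.12 over all genes. In the fit of all libraries none of the 10 was called, beside 0.00789% of all genes called higher, while 8 had an unadjusted p under 0.05, beside 14.5% of all genes. With control 3 and STZ 1 left out 7 were called, beside 5.18% of genes called higher, and in a fit of only these 3 groups 10 were called, beside 17.2%. With the libraries high in Cyp11b1 left out 1 was called, beside 0.442%. Since the genes were chosen with such values known, nothing is read from these counts. Other marker lists also lay away from 0 here, with no gene of them called. The median difference was 1.24 for 6 adipocyte markers and 0.96 for 5 erythroid markers. All of them lay above 0, beside 9673 of all 12682 genes, and 2 of each list had an unadjusted p under 0.05. Those 2 erythroid genes, Hbb-bs and Hbb-bt, ran from 1.04 to 213 and from 0.24 to 23.5 FPKM within AOS alone. The median was 0.90 for 9 tubular injury genes, all above 0, and Kap stood at -1.16 ± 0.77. For 18 proliferation genes it was 0.54, all above 0 and 14 at an unadjusted p under 0.05, beside 14.5% of all genes. Among them Mki67, Top2a, Ccnb1, Cdk1 and Plk1 were at most 0.52 FPKM in AOS. They passed the filter of 1 FPKM only through other libraries, which favours differences above 0, so nothing is read from the proliferation counts. The part of all these lists in the result was not tested.

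**Figure D4:**
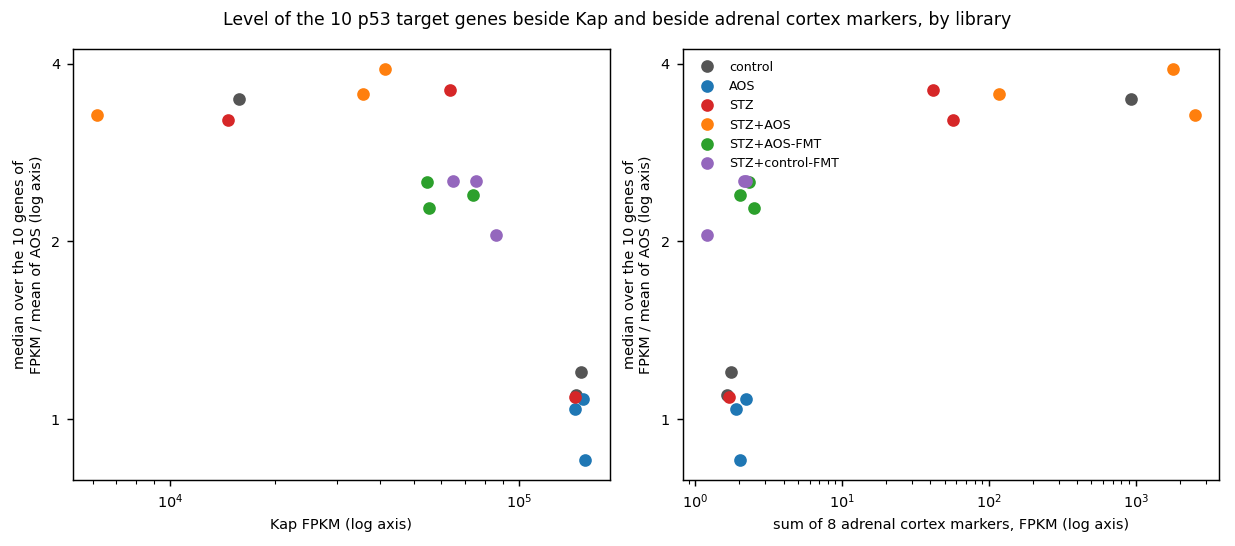
Median over the 10 genes of FPKM divided by the AOS mean, on a log axis, against the FPKM of Kap (left) and the summed FPKM of 8 adrenal cortex markers (right), also on log axes, with 1 point for each library coloured by group. The 6 transfer libraries have medians of 2.05 to 2.53 with adrenal sums of at most 2.52, much like those of the libraries with medians of 0.852 to 1.2, and the 6 libraries with medians of 3.21 to 3.92 include STZ 2, whose Kap of 63552 FPKM lies within the transfer range of 54474 to 85880.

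The interaction asks whether the difference between STZ+AOS and AOS exceeded that between STZ and control. Its estimate was above 0 for 10 of 10 genes, beside 76.4% of all genes, with a median of 1.49, beside 0.29 over all genes, and a largest value of 3.72 ± 1.13 for Cdkn1a. None of the 10 was called (0% of all genes called), and 7 had an unadjusted p under 0.05, beside 33.4% of all genes. Markers of other tissue had larger estimates, with medians of 6.71 for the adrenal cortex and 4.01 for chromaffin cells, all 8 and all 5 at an unadjusted p under 0.05. The median was -0.66 for the proximal tubule, with 5 of 7 at such a p. Their part in the interaction was not tested. With control 3 and STZ 1 left out the median of the 10 genes was 0.44. Without STZ 3 the fit called Cdkn1a, Mdm2 and Phlda3, beside 20.4% of all genes called higher.

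A list of 30 further p53 targets was described beside the 10 genes, 29 of them tested. Against AOS, 21 of the 29 were called higher in STZ+AOS and 0 lower, beside 39.3% of all genes called higher, with a median of 1.00, beside 0.29. Those with the smallest adjusted p were Gadd45a, a growth arrest gene, with 1.02 ± 0.14 (limma adjusted p = 0.0059), the polo-like kinase gene Plk3 with 2.26 ± 0.42 (0.0059) and the nuclease gene Aen with 1.31 ± 0.23 (0.0059). Next were the death receptor gene Tnfrsf10b with 1.20 ± 0.27 (0.00726), the antiproliferative gene Btg2 with 2.41 ± 0.55 (0.0074) and the phosphatase gene Ptp4a3 with 1.24 ± 0.30 (0.00821). Quantile normalization left 14 called higher and 2 lower, and median-of-ratios rescaling 17 and 3, with medians of 0.73 and 0.65. Over all genes these scalings called 1407 higher and 1951 lower, and 1723 higher and 2499 lower. The 3 that lay below 0 as deposited were Perp, Rrm2b and Dcxr, from -0.17 to -0.26. The fit without the libraries over 100 FPKM of Cyp11b1 has 1 STZ+AOS library, so nothing is read from its calls. Against STZ 0 of the 29 were called and 11 had an unadjusted p under 0.05, a share near the 33.1% of all genes. The smallest p there were those of Ercc5, a repair endonuclease gene, at 0.47 ± 0.17 (limma adjusted p = 0.0866), Plk3 at 1.15 ± 0.42 (0.0882) and Abhd4 at 0.65 ± 0.25 (0.0937). For STZ against control and AOS against control limma called 0 of the 29, with 0 and 2 at an unadjusted p under 0.05. For each transfer group against STZ, and between the donors, it called 0, with 0 at an unadjusted p under 0.05.

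**Figure D5:**
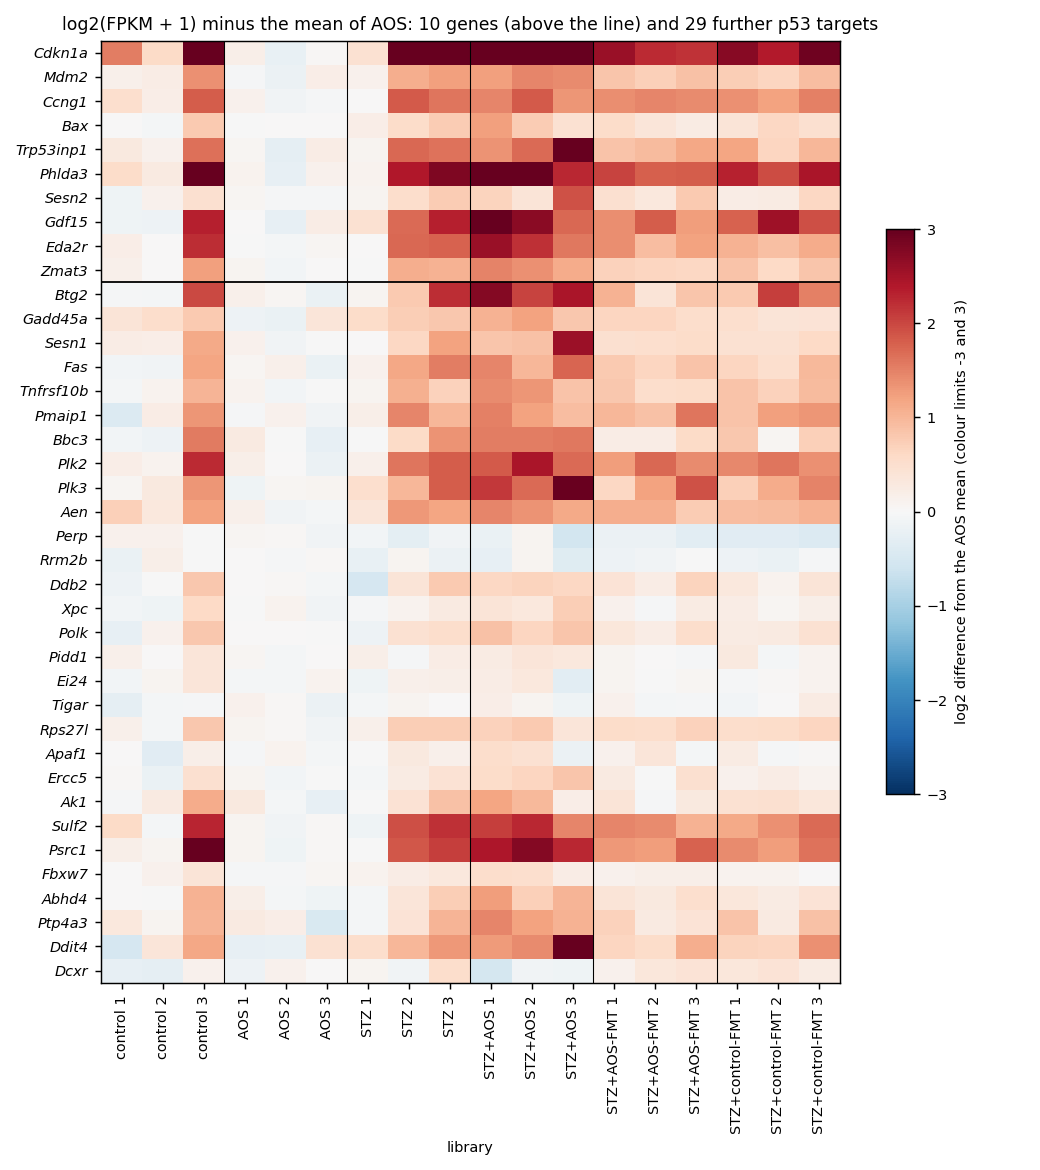
Log2(FPKM + 1) minus the AOS mean of the same gene for the 10 genes (above the line) and 29 further p53 target genes (below it), by library, with colours from -3 (blue) to 3 (red). Control 3, STZ 2, STZ 3 and the STZ+AOS libraries are red for most genes and the transfer libraries paler, while Perp, Rrm2b, Tigar and Dcxr show little colour in any library.

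Single STZ+AOS libraries stood out for particular genes. STZ+AOS 3, where Trp53inp1 and Sesn2 were highest, also had the highest level of Sesn1 with 28.0 FPKM, of Ddit4, an mTORC1 inhibitor, with 97.6 and of Chac1, a stress-induced enzyme of glutathione breakdown, with 10.7. In STZ+AOS 1 and 2 these were at 7.66 and 7.99, at 15.2 and 16.9 and at 1.72 and 1.01. STZ+AOS 1, where Gdf15 was highest, had 423 FPKM of the tubular injury marker Havcr1, 772 of Lcn2 and 72.3 of Timp1. The other STZ+AOS libraries had 32.0 and 7.45 of Havcr1, 62.8 and 27.2 of Lcn2 and 4.91 and 1.92 of Timp1. These 6 genes were chosen after their values were seen. Of the 10 genes, 5 had their highest STZ+AOS value in replicate 1 (Bax, Phlda3, Gdf15, Eda2r and Zmat3), 2 in replicate 2 (Mdm2 and Ccng1) and 3 in replicate 3 (Cdkn1a, Trp53inp1 and Sesn2).

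Trp53 itself, the gene of p53, was at 20.2 to 20.6 FPKM in AOS, 18.4, 19.2 and 26.3 in controls 1 to 3, 20.96 to 24.1 in STZ, 40.3, 29.5 and 23 in STZ+AOS and 22.7 to 27.2 in the transfer libraries. Of 14 genes for p53 and its regulators 11 were tested, and 6 were called higher in STZ+AOS than in AOS and 0 lower, beside 39.3% of all genes called higher. They were the kinase gene Hipk2 with 0.50 ± 0.09 (limma adjusted p = 0.0059), the phosphatase gene Ppm1d with 0.69 ± 0.14 (0.0064), Kat5 with 0.41 ± 0.11 (0.0103), Ep300 with 0.46 ± 0.13 (0.0137), Trp53 with 0.54 ± 0.16 (0.0159) and Atm with 0.33 ± 0.12 (0.0389). Hipk2 was the 1 gene of this list called against STZ, with 0.43 ± 0.09 (0.0336). The median of the list was 0.40 against AOS, beside 0.29 over all genes. These calls depend on the scaling: against AOS quantile normalization left 0 of the 11 called and median-of-ratios rescaling left Ppm1d alone, with medians of 0.03 and 0.08, and against STZ Hipk2 was called under neither.

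Growth arrest was followed in other cell cycle genes. Of the 6 other inhibitors of cyclin-dependent kinases 5 were tested. In STZ+AOS against AOS, Cdkn1c was higher by 1.65 ± 0.51 (limma adjusted p = 0.0194), Cdkn2b by 1.60 ± 0.44 (0.0122) and Cdkn2d by 0.59 ± 0.22 (0.0385), beside 39.3% of all genes called higher. Cdkn2c lay lower, at -0.61 ± 0.14 (0.00746). Cdkn1c was highest in control 3, STZ+AOS 1 and STZ+AOS 3, with 56.77, 51.6 and 46.97 FPKM. Their adrenal cortex sums were also the highest, at 922, 2535 and 1788 FPKM. STZ+AOS 2 held 29.88 FPKM of Cdkn1c, against at most 13.12 in AOS. The part of other tissue in the Cdkn1c difference was not tested. Of 24 proliferation genes 18 were tested, and 10 were called higher and 0 lower, beside 39.3% of all genes called higher, with a median of 0.64, beside 0.29. They included Plk1 with 0.66 ± 0.16 (0.00815), the replication licensing gene Mcm4 with 0.99 ± 0.29 (0.0166) and Pcna, itself a p53 target, with 0.74 ± 0.23 (0.02). Most of these calls were lost with another scaling. Quantile normalization left 1 proliferation gene called (Pcna) and median-of-ratios rescaling 2 (Mcm4 and Plk1), with medians of 0.18 and 0.45, while Cdkn1c, Cdkn2b and Cdkn2c were called under both and Cdkn2d under neither. Mki67, a marker of dividing cells, was low throughout, at 0.31 to 0.39 FPKM in AOS, 0.60 to 1.09 in STZ+AOS and 0.62 to 1.25 in the transfer libraries. Mki67, Top2a, Ccnb1, Cdk1 and Plk1 passed the filter only through libraries outside AOS. That favours differences above 0 against AOS, so nothing is read from the count of proliferation genes called.

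Genes of the integrated stress response, which also drives Sesn2 and Gdf15, were called higher in STZ+AOS than in AOS for 9 of 11 tested, beside 39.3% of all genes, with a median of 1.19, beside 0.29. Asns had 1.35 ± 0.29 (limma adjusted p = 0.00711), Ppp1r15a 1.68 ± 0.37 (0.00719) and Atf4 0.67 ± 0.15 (0.0074). Tubular injury genes were called higher for 9 of 9 tested, with a median of 2.52, among them Krt18 with 2.83 ± 0.62 (0.00711), Lcn2 with 4.82 ± 1.14 (0.00814) and Havcr1 with 4.04 ± 1.03 (0.00969). Quantile normalization and median-of-ratios rescaling left 6 and 5 stress response genes called higher, with 1 lower under each, and 8 and 7 tubular injury genes called higher. Over all genes they called 1407 and 1723 higher and 1951 and 2499 lower. Against STZ limma called 0 genes of both lists, with 5 of 11 and 8 of 9 at an unadjusted p under 0.05, beside 33.1% of all genes.

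The 10 genes varied together over the 18 libraries. Spearman's rho over their 45 pairs ran from 0.620 to 0.957, with a median of 0.856, as a description of libraries that share the split given above. Cdkn1a followed the mean of the standardised 10 genes most closely, with a rho of 0.979, and Gdf15 least, with 0.8. Each of the 10 is itself part of that mean, which raises its rho. Of 12672 other genes, 639 had a rho of 0.9 or more with that mean and 128 one of -0.9 or less, so a likeness this high was common. The highest were Slc29a1, a nucleoside transporter gene, with 0.988, the metallothionein genes Mt2 with 0.981 and Mt1 with 0.979, the oncostatin M receptor gene Osmr with 0.980 and Pxdc1 with 0.977. Mt2 was at 56.4 to 70.7 FPKM in AOS, at 364 to 1019 in STZ+AOS, at 151 to 198 in the transfer libraries and at 557 in control 3. Among the lowest were Gpr137b with -0.965, Abhd14b with -0.959 and Cryz with -0.957.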

How the data were processed

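Frozen kidney was taken up in Trizol, its total RNA cleaned on a column and libraries made by a standard Illumina protocol, per the labels' protocols. The submitters' processing notes name Bowtie 0.12.2 and mm10. No source used here states the counting tool, annotation or filters. No header names the unit. The authors' deposited values were taken as FPKM because the sum of value times length varied by 0.919% (coefficient of variation) and the plain sum by 5.47%, over 18965 rows with a GENCODE release 21 length. Of 19542 symbols 3 stand on 2 rows, none in a list used. Without read totals no counting interval is given, and judged by the smallest values the worth of 1 read differed by 1 to 1.14 times between libraries.

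A gene entered the fit with 1 FPKM or more in 3 or more libraries (12682 genes, among them the 10 target genes). All 18 libraries were fitted together on log2(FPKM + 1), each group with its own mean, in limma 3.58.1 under R 4.3.3 with trend and robust. Benjamini-Hochberg adjustment covered all genes, with a threshold of 0.05. The script was tested on simulated data. No call rests on exact permutation, whose p for 3 against 3 is 0.1 at best. The 10 genes and all lists were chosen with earlier results of these data known. All 10 genes are named, and of other lists up to 6 genes per comparison that passed with the smallest adjusted p, or up to 3 with the smallest p where none passed. Likeness was ranked by Spearman's rho over 18 libraries, with the 5 highest and 5 lowest genes taken, of which 2 of the lowest are not reported here. Alternatives were 2 scalings, no filter, a pseudocount of 0.1 or 5, fits restricted to the groups being compared, a block for the replicate number and the omission of each library. Chosen after the data were seen were the omission of control 3 with STZ 1, that of libraries over 100 FPKM of Cyp11b1, and the comparison of the transfer groups with AOS.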

Additional observations from a re-analysis of the deposited data

How the results depend on the processing

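The 10 genes kept the sign of their median in every alternative for STZ, AOS, STZ+AOS against STZ, STZ+AOS against AOS, the interaction and the transfer groups against AOS. With control 3 and STZ 1 left out, STZ against control had 8 of the 10 genes and 12 further p53 targets called (median 1.412, 1105 genes in all), the interaction median was 0.443, the median of STZ+control-FMT against STZ was -0.357, and the transfers against AOS had 7 and 10 called. With libraries over 100 FPKM of Cyp11b1 left out, STZ+AOS against AOS had 7 further targets called, the transfers against AOS 1 and 1, and the interaction median was 0.936. Only the groups compared gave 10 and 18 for the transfers against AOS. The median of STZ+control-FMT against STZ turned to -0.009 with quantile normalization, -0.007 with median-of-ratios rescaling and -0.031 with a pseudocount of 5. For STZ+AOS against STZ, median-of-ratios rescaling called 1 further target and the replicate block 2. The causes were not tested. Both omissions of libraries were chosen after the values were seen, so nothing is read from their counts.

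Same-numbered libraries of different groups did not deviate together on the median, with an r of -0.004 over 45 pairs, beside 0.001 for other pairs. Single same-numbered pairs ran from -0.258 to 0.667, with 15 over 0.1. The labels name no pairing by number, so the block has no basis in them, and it changed no count of the 10 genes called. With it STZ+AOS against STZ called 1116 genes in place of 575.

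Leaving out each library in turn gave medians of the 10 genes from 0.039 to 0.914 for STZ, -1.037 to -0.146 for AOS, 0.306 to 1.023 for STZ+AOS against STZ, -0.472 to 0.261 for STZ+AOS-FMT against STZ and -0.357 to 0.188 for STZ+control-FMT against STZ. They ran from -0.068 to 0.001 between donors, 1.583 to 1.864 for STZ+AOS against AOS, 0.903 to 1.803 for the interaction and 0.950 to 1.099 for the transfers against AOS. The median turned to 0.137 for STZ+AOS-FMT without STZ 2 and to 0.261 without STZ 3, to -0.357 for STZ+control-FMT without STZ 1 and to -0.038 without STZ+control-FMT 3, and to 0.001 between donors without STZ+control-FMT 3. Of the 10 genes 9 to 10 were called for STZ+AOS against AOS and 0 to 3 for the interaction (3 without STZ 3). Of the further targets, 17 to 21 were called for STZ+AOS against AOS, 0 to 6 for STZ+AOS against STZ (6 without STZ 3) and 0 to 8 for the interaction (8 without STZ 3). With all libraries, 39.3%, 3.44% and 0% of all genes were called higher in these comparisons. Without STZ 3 the interaction called 20.4% of all genes higher, and the count over all genes for STZ+AOS against STZ rose as well. Nothing is read from these counts of targets. Against AOS, Sesn2 was not called without AOS 2, AOS 3 or STZ+AOS 3, nor Bax without STZ+AOS 1.

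Counts over all genes moved more. STZ+AOS against STZ called 128 genes with quantile normalization (37 higher and 91 lower, beside 436 and 139), 213 higher and 592 lower with median-of-ratios rescaling, 1129 with no filter, 242 and 952 with pseudocounts of 0.1 and 5, 20 and 10 with the libraries above left out, and 0 with only the groups compared. STZ+AOS against AOS called 5895, but 3358 with quantile normalization, 746 without the libraries high in Cyp11b1, and 3507 to 5762 with 1 library left out. The interaction called 0, but 3044 without STZ 3, 793 without STZ+AOS 2 and 1 without STZ 2. STZ against control called 0, but 9 with no filter and 2 with only the groups compared. AOS against control called 9, but 41 with no filter and 1 with a pseudocount of 5. The transfer groups against STZ called 14 and 13, but 178 and 157 with no filter and 0 with only the groups compared. The transfers against AOS called 2, but 805, 73 and 2673 under the settings in the order given first.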
